A study of Caenorhabditis elegans with 6 samples.

Results

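The comparison is HW3826 against GR1395, a pair of Caenorhabditis elegans strains that each carry a transgene array. It uses 4 of the 6 libraries of the series, 2 libraries per strain, and it covers all genes of the deposited count table. HW3826 is named in the design text together with VT1367, and the growth text gives VT1367 the array maIs105, in which the promoter of the collagen gene col-19 drives GFP. How the names HW3826 and VT1367 relate is not given further. GR1395, spelled GR1935 in 1 label, carries the array mgIs49, in which the promoter of the molting gene mlt-10 drives a short-lived GFP next to a ttx-3 reporter. In both strains, starved larvae in the first larval stage were synchronised overnight in M9 buffer, grown for 4 hours at 25 °C and harvested whole, and polyadenylated RNA was sequenced. Wild-type N2 libraries were not part of the comparison. The study concerns the effect of large arrays on a myrf-1 phenotype, where myrf-1 encodes a transcription factor that is released from a membrane and is required for larvae to develop. Nothing in the labels places the 2 libraries of a strain in separate cultures. The p-values therefore cover the spread between libraries only, and that spread may be technical.

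A transgene array of this kind is a long repeat of injected DNA that has been integrated into a chromosome. Its promoter copies can bind factors that also act on other genes, and its repeats can attract RNA silencing and repressive chromatin. A strain with an integrated array also differs from another in where the array sits and in its history as a laboratory line. Fed larvae of the first stage leave starvation arrest, resume division of blast cells, and build a new collagen cuticle over a provisional apical matrix before they molt.

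The HW3826 libraries held 53362541 and 47736810 counts, and the GR1395 libraries held 54957641 and 47259839. The first principal component took 71.9% of the variance and set the HW3826 libraries, at -34.9 and -28.3, apart from the GR1395 libraries, at 38.3 and 24.8. The second took 15% and set replicate 1 apart from replicate 2 in both strains. Intestine, body wall muscle and neuron markers were present in all 4 libraries. Yolk protein genes of adult hermaphrodites took 0.000122% and 0.000132% of the counts in HW3826 and 0.000156% and 0.00018% in GR1395. Levels below are CPM, read counts scaled to a common library size with trimmed-mean factors, and 3 counts correspond to between 0.0546 and 0.0635 CPM.

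Of 14904 genes tested, 2841 passed edgeR's quasi-likelihood test at an adjusted p of 0.05, which is 19.1% of the genes tested. Of these, 1487 were higher in HW3826 (9.98%) and 1354 were lower in HW3826 (9.08%). Among the called genes the absolute log2 fold change had a median of 0.46, and 590 genes (3.96% of the genes tested) differed by at least 2-fold, 331 higher and 259 lower. At 4-fold there were 139 higher and 71 lower. Among the 590, 289 had a mean below 1 CPM, and 58 had a mean of 10 CPM or more, 37 higher and 21 lower. The libraries of the strains did not overlap in any of the 2841 called genes, and they did not overlap in 62.2% of all genes tested. Leaving out HW3826 replicate 1 gave 856 higher and 762 lower, and 360 past 2-fold. Of the 2841 genes, 1117 (39.3%) were called in the same direction in each of the 4 fits that left out 1 library. Below, a gene's call held in all 4 of these fits unless the text says otherwise.

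**Figure D1:**
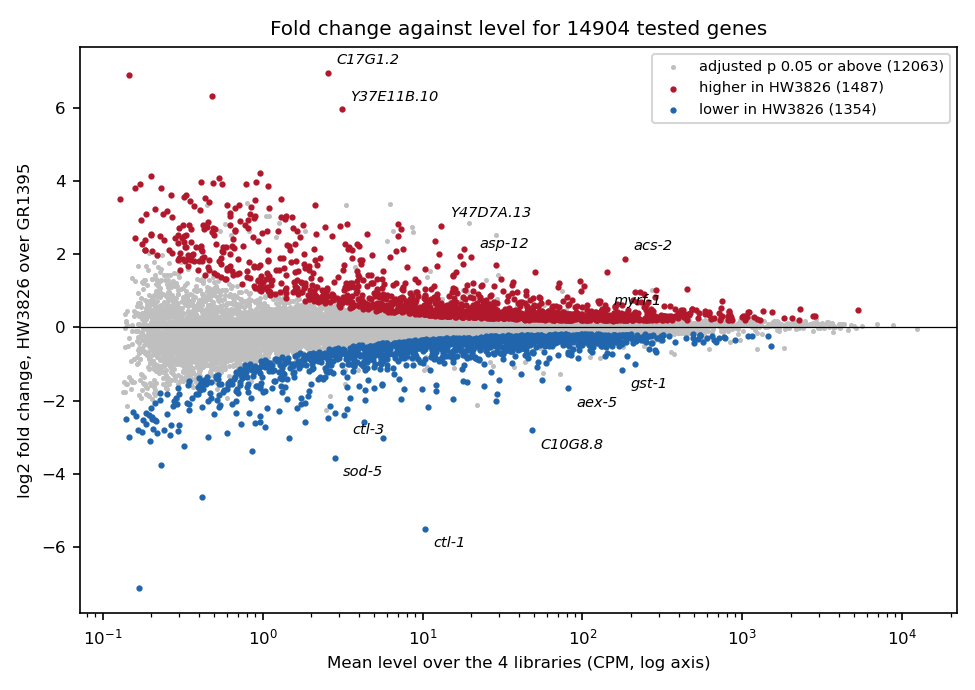
Log2 fold change of HW3826 over GR1395 (vertical axis) against the mean level over the 4 libraries in CPM (horizontal log axis), 1 point per tested gene. Red points are the 1487 genes higher in HW3826, blue points the 1354 lower, grey points the other 12063; the called genes of large fold lie mostly at low levels, where fitted fold changes of genes near 0 counts depend on the prior count.

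Fold changes leaned with level. The median log2 fold change was -0.197 in the 10% of genes with the lowest levels (median 0.299 CPM) and 0.064 in the 10% with the highest (median 226 CPM), against -0.01 over all genes tested. By chromosome, between 18.1% (I) and 20.1% (V) of the tested genes on the nuclear chromosomes were called. On the X chromosome 253 genes were higher in HW3826 and 159 were lower, with a median log2 fold change of -0.008. These are 11.4% and 7.16% of the genes tested on X, against 9.98% and 9.08% over all genes tested. Chromosome V had 308 higher and 344 lower (median -0.055), and chromosome III had 197 higher and 214 lower. Without HW3826 replicate 1, 156 genes on X were higher.

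Of the source genes of the array promoters, mlt-10 passed the test and ttx-3 did not, and myrf-1 and myrf-2 passed in opposite directions. The endogenous mlt-10 (WBGene00015646, chromosome II 546705 to 552032, in ce11 coordinates as all positions here) was at 12.9 and 12.8 CPM in HW3826, against 6.55 and 9.96 CPM in GR1395. The HW3826 libraries lay above both GR1395 libraries, which differed more from each other. The log2 fold change was 0.64 (SE 0.18, adjusted p = 0.0422), and that call ended without HW3826 replicate 1 (adjusted p = 0.26), without HW3826 replicate 2 (0.21) and without GR1395 replicate 1 (0.0806). Exons of mlt-10 overlap those of T27A1.3 and lips-7 on the same strand, and GR1395 carries extra copies of its promoter, so which transcripts gave these reads cannot be told apart. The neuronal homeobox gene ttx-3 was at 1.58 and 1.94 CPM in HW3826 and at 1.95 and 1.90 CPM in GR1395. These levels differed by less than the spread (log2 fold change -0.13, SE 0.22, adjusted p = 0.719). The adult collagen gene col-19 had 1 and 0 counts in HW3826 and 2 and 0 counts in GR1395, under the floor of 3 counts in every library, and was not tested.

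The myrf-1 gene (II 10496987 to 10502541) was at 148 and 165 CPM in HW3826, against 111 and 132 CPM in GR1395. Both HW3826 libraries were higher, by 0.37 on the log2 scale (SE 0.09, adjusted p = 0.0183), and the call ended without HW3826 replicate 2 (adjusted p = 0.0618). Its paralog myrf-2 (X 10180940 to 10194377) was at 251 and 260 CPM in HW3826, against 282 and 308 CPM in GR1395. The HW3826 libraries lay below both GR1395 libraries, with a log2 fold change of -0.21 (SE 0.07, adjusted p = 0.0402). That call ended without either HW3826 library or without GR1395 replicate 2, with an adjusted p of up to 0.241. pan-1, which codes for a leucine-rich repeat membrane protein that binds the myrf proteins, was at 182 and 214 CPM in HW3826 and 193 and 218 CPM in GR1395, and the strains overlapped (log2 fold change -0.05, SE 0.09, adjusted p = 0.715).

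Among genes with a mean of at least 2 CPM, the largest rise was that of C17G1.2 (WBGene00007649, X 9921557 to 9922843). It had 271 and 233 counts in HW3826, against 2 and 2 counts in GR1395. No other gene was at or under 3 counts in each library of a strain while reaching 1 CPM in each library of the other. Its summed counts, relative to the library totals, were 127 times as high in HW3826, with a 95% interval of 49.4 to 469 for counting error. Y37E11B.10 (WBGene00021381, IV 3603550 to 3606466) had 300 and 309 counts in HW3826, against 5 and 5 counts in GR1395, a ratio of 61.6 with an interval of 33.3 to 129. Y47D7A.13 was at 19.3 and 26.3 CPM in HW3826 and at 4.07 and 2.53 CPM in GR1395, with a log2 fold change of 2.77 (SE 0.29, adjusted p = 0.00727). The cuticle collagen gene col-77 was at 4.42 and 6.26 CPM in HW3826 and at 0.868 and 0.695 CPM in GR1395, with a log2 fold change of 2.76 (SE 0.24, adjusted p = 1.31e-05). The rest of the 10 largest rises were C17E7.4, ZC308.4, era-1, sepa-1, mex-6 and skr-10, at log2 fold changes of 3.34 to 2.55. Of these, the calls of C17E7.4, ZC308.4, sepa-1 and mex-6 ended without HW3826 replicate 1 and also without HW3826 replicate 2.

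The largest fall was that of the catalase gene ctl-1 (WBGene00000830, II 14303568 to 14306260). It had 22 and 22 counts in HW3826, against 1097 and 986 counts in GR1395, and the log2 fold change was -5.50 (SE 0.16, adjusted p = 2.19e-10). The next gene, ctl-3 (II 14307798 to 14310779), was at 1.17 and 0.906 CPM in HW3826 and at 5.76 and 5.16 CPM in GR1395, with a log2 fold change of -2.39 (SE 0.20, adjusted p = 8.79e-06). On the other side, ctl-2 (II 14299556 to 14302027), a peroxisomal catalase, was at 151 and 138 CPM in HW3826 and at 122 and 132 CPM in GR1395, and it did not pass (log2 fold change 0.18, SE 0.07, adjusted p = 0.0781). These catalase genes are near-identical copies, and the counting could have divided reads between them. The superoxide dismutase gene sod-5 (II 4417633 to 4419130) was at 0.635 and 0.232 CPM in HW3826, against 6.29 and 4.11 CPM in GR1395. Its log2 fold change was -3.56 (SE 0.40, adjusted p = 0.00129). C10G8.8 (V 5324806 to 5328414) was at 11.9 and 12.1 CPM in HW3826 and at 84.9 and 83.6 CPM in GR1395. Its 2 libraries agreed closely within each strain, and its log2 fold change was -2.81 (SE 0.07, adjusted p = 1.16e-10). M60.7, R12G8.1, T23F2.4, cyp-34A10, T21D12.7 and hsp-16.41 made up the rest, at log2 fold changes of -3.02 to -2.18. The calls of M60.7, R12G8.1, T23F2.4 and hsp-16.41 ended without either HW3826 library.

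**Figure D2:**
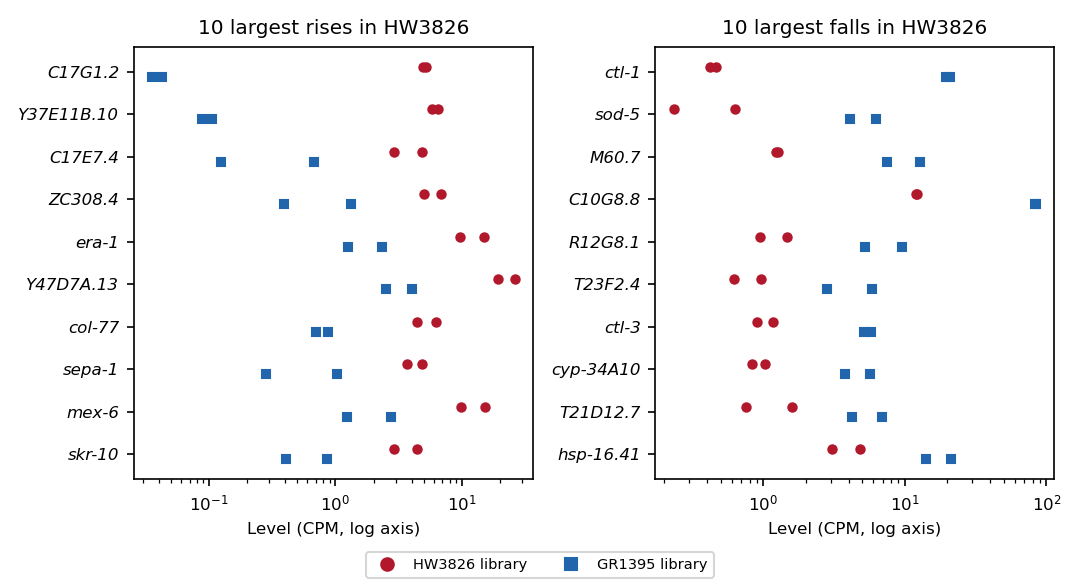
Level in CPM (horizontal log axis) in each HW3826 library (red circles) and each GR1395 library (blue squares) for the 10 largest rises (left) and the 10 largest falls (right) in HW3826 among called genes with a mean of at least 2 CPM. C17G1.2 was at 5.21 and 4.91 CPM in HW3826 against 0.0354 and 0.0421 CPM in GR1395, and ctl-1 at 0.423 and 0.464 CPM in HW3826 against 19.4 and 20.8 CPM in GR1395.

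Most tested members of a chosen list of genes, whose RNAs are stored in the egg or made in the early embryo, were called higher in HW3826. Oocytes store messenger RNAs whose products polarise the zygote and set aside the germline, and most of them are cleared as embryogenesis goes on. Of 40 tested members of this list, 25 were higher in HW3826 and none was lower, so that 62.5% were called, against 19.1% of all genes tested, and the median log2 fold change was 1.0, against -0.01 over all genes tested. Together the list took 0.0637% and 0.0572% of the counts in HW3826, against 0.0462% and 0.0470% in GR1395. In bulk RNA, fewer cells of a type and less RNA per cell cannot be told apart.

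mex-6 (II 9524174 to 9526359), a zinc finger gene that acts in the polarity of the zygote, was at 15.3 and 9.93 CPM in HW3826, against 1.24 and 2.76 CPM in GR1395. The strains did not overlap, but the libraries of each strain differed from each other, and the log2 fold change was 2.68 (SE 0.49, adjusted p = 0.0468). era-1, whose RNA lies at the anterior of the early embryo, was at 15 and 9.72 CPM in HW3826, against 1.26 and 2.32 CPM in GR1395 (log2 fold change 2.81, SE 0.38, adjusted p = 0.0149), a call that ended with no expression filter (adjusted p = 0.0537). meg-4, a P granule gene, was at 1.44 and 0.801 CPM in HW3826, against 0.106 and 0.168 CPM in GR1395, for a log2 fold change of 3.04 (SE 0.48, adjusted p = 0.00104). In these genes HW3826 replicate 1 was above replicate 2. The sepa-1 gene, whose product is removed from somatic cells by autophagy, was at 4.85 and 3.65 CPM in HW3826 and at 0.283 and 1.03 CPM in GR1395 (log2 fold change 2.73, SE 0.53, adjusted p = 0.0277). The very early transcript genes vet-1 and vet-6 had log2 fold changes of 2.70 and 2.49 (adjusted p = 0.0425 and 0.00514), and the call of vet-1 ended without HW3826 replicate 1 (adjusted p = 0.0806). With no expression filter the calls of mex-6, sepa-1 and vet-1 ended too (adjusted p = 0.128, 0.069 and 0.0932).

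Further members were chosen after their values were seen. oma-1, a zinc finger gene of maturing oocytes, was at 8.62 and 6.81 CPM in HW3826, against 1.51 and 2.49 CPM in GR1395, with a log2 fold change of 1.96 (SE 0.23, adjusted p = 0.000395). pie-1, a repressor of transcription in germline blastomeres, was at 5.54 and 6.01 CPM in HW3826 and at 2.05 and 2.40 CPM in GR1395 (log2 fold change 1.38, SE 0.17, adjusted p = 0.000162). nos-2, meg-1 and pos-1 had larger fitted log2 fold changes of 3.39, 3.33 and 2.85 but wide errors, and did not pass (adjusted p = 0.0644, 0.0886 and 0.111). pos-1 was at 41.7 and 27.1 CPM in HW3826, against 2.83 and 6.87 CPM in GR1395. Members for the eggshell and for yolk uptake, egg-1, egg-2, egg-3, chs-1 and rme-2, did not pass, at log2 fold changes of -0.07 to 0.24. No member was lower by DESeq2 either, and 1, cpg-3, was lower at an unadjusted p under 0.05. Of the 25 calls, 14 held in all 4 fits that left out 1 library. The list gave 15 higher members without HW3826 replicate 1, and the calls of sepa-1 and mex-6 ended without either HW3826 library, with adjusted p of up to 0.237.

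Germ cell genes and cell division genes were called at shares near that of all genes, 20.7% and 23.7% against 19.1%. Of 29 tested P granule and germ cell genes, 6 were higher and none was lower in edgeR or DESeq2 (median log2 fold change 0.16), and mes-3 was lower at an unadjusted p under 0.05. gld-3, an RNA-binding regulator of germ cells, was at 14 and 12 CPM in HW3826 and at 7.3 and 7.5 CPM in GR1395, with a log2 fold change of 0.85 (SE 0.11, adjusted p = 0.000341). The Notch receptor gene glp-1, the Argonaute gene wago-1 and the histone methyltransferase gene mes-4 had log2 fold changes of 0.54, 0.50 and 0.50. Of 38 cell cycle and replication genes, 8 were higher and 1 was lower (median 0.17). A positive sign was seen in 35 of the 38, against 7312 of the 14904 genes tested. The B-type cyclin gene cyb-2.2 was at 6.69 and 4.43 CPM in HW3826, against 1.01 and 1.52 CPM in GR1395, with a log2 fold change of 2.15 (SE 0.26, adjusted p = 0.000415). cyb-2.1 and cyb-1 had log2 fold changes of 1.74 and 0.86. The only lower member was cki-1, an inhibitor of cyclin-dependent kinases. It was at 14.2 and 16 CPM in HW3826, against 23.3 and 22.8 CPM in GR1395, for a log2 fold change of -0.61 (SE 0.09, adjusted p = 0.000724). The count of higher cell cycle genes was 21 without GR1395 replicate 2, and 5 without GR1395 replicate 1 or without HW3826 replicate 1. Of 30 tested histone genes, 6 were higher and 2 were lower (26.7% called). The linker histone gene hil-5 rose by 1.0 on the log2 scale, and hil-1 fell by 1.14 (adjusted p = 0.000356 and 9.4e-05). A single histone gene was higher and 4 were lower without HW3826 replicate 1, and 4 were lower without GR1395 replicate 2. Histone genes are near-identical copies, so reads may have been divided between them.

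Most of the listed cytosolic heat shock genes were called lower in HW3826. These genes code for chaperones that bind unfolded proteins, and the transcription factor HSF-1 raises them on stress. Of 21 tested cytosolic heat shock genes, 13 were lower and 1 was higher (66.7% called, against 19.1% of all genes tested). The median log2 fold change was -1.42. At a mean of 1 CPM or more, 10 of 18 were lower and 1 was higher, with a median of -0.25. Over all genes at that cut, 1218 of 12381 were lower and 1331 were higher. The 13 fall into the small heat shock genes, the inducible HSP70 genes and a few members with small changes, hsp-110 among them. The abundant chaperone genes hsp-1 and hsp-90 did not pass. The list's share of all counts was 0.793% and 0.814% in HW3826 and 0.814% and 0.867% in GR1395.

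The small heat shock gene hsp-16.41 (V 1805178 to 1805875) was at 3.04 and 4.83 CPM in HW3826, against 21.3 and 14 CPM in GR1395, with a log2 fold change of -2.18 (SE 0.34, adjusted p = 0.03). GR1395 replicate 1 was above GR1395 replicate 2, and both lay above HW3826. On chromosome V, from 9087293 to 9090604, 4 neighbouring hsp-16 genes were lower together. In this cluster hsp-16.1 (WBGene00002017) was at 0.5 and 0.674 CPM in HW3826, against 2.78 and 2.63 CPM in GR1395 (log2 fold change -2.21, SE 0.26, adjusted p = 0.000123). The other hsp-16.1 gene (WBGene00002015) and the hsp-16.48 genes (WBGene00002019 and WBGene00002020) had log2 fold changes of -1.93, -2.34 and -2.42. These pairs are near-identical, and their separate values are uncertain. hsp-12.6 was at 0.231 and 0.0632 CPM in HW3826, against 2.02 and 1.12 CPM in GR1395 (log2 fold change -3.37, SE 0.50, adjusted p = 0.00122), and its level in HW3826 replicate 2 was that of 3 counts. The inducible HSP70 gene F44E5.4 (II 11757107 to 11759311) was at 11.8 and 11 CPM in HW3826 and at 55.5 and 36.5 CPM in GR1395 (log2 fold change -2.01, SE 0.25, adjusted p = 0.0192). Its near-identical neighbour F44E5.5 was lower too, at -1.83 on the log2 scale (adjusted p = 0.0071).

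The next values were chosen after they were seen. hsp-70 was at 1.64 and 1.29 CPM in HW3826, against 5.88 and 5.33 CPM in GR1395, and the strains were far apart (log2 fold change -1.94, SE 0.19, adjusted p = 3.17e-05). The regulator gene hsf-1 was at 41.8 and 39.7 CPM in HW3826, against 51.4 and 49.1 CPM in GR1395 (log2 fold change -0.30, SE 0.07, adjusted p = 0.00927), and this call ended without HW3826 replicate 2 (adjusted p = 0.057). The constitutive HSP70 gene hsp-1 was at 3794 and 3873 CPM in HW3826, against 3487 and 4048 CPM in GR1395, and the strains overlapped (adjusted p = 0.85). hsp-90 was at 3166 and 3102 CPM in HW3826, against 3050 and 3226 CPM in GR1395, and it did not pass either (adjusted p = 0.992). The member that rose was sip-1, a small heat shock gene of oocytes and embryos, at 45.1 and 32 CPM in HW3826 and 15.7 and 19.6 CPM in GR1395 (log2 fold change 1.13, SE 0.22, adjusted p = 0.0397), a call that ended with no expression filter, with all 6 libraries in the fit and with the gene-length trend removed. Of the 14 calls, 9 held in all 4 fits that left out 1 library. Those of hsp-16.2, hsp-16.41 and F44E5.4 ended without either HW3826 library (adjusted p of up to 0.373), and that of hsp-110 (log2 fold change -0.19) ended in 3 of the 4. Under a stricter expression filter, which leaves out low genes, 7 were lower. Chaperones of other compartments moved less. Of 14 genes of the unfolded protein response of the endoplasmic reticulum (14.3% called), pdi-6 and pdi-2 were higher, by 0.29 and 0.25. Neither call held in all 4 fits. Without GR1395 replicate 2, 5 were higher. None of 9 mitochondrial chaperone and stress genes passed in edgeR or DESeq2, and haf-1 and ubl-5 were higher at an unadjusted p under 0.05.

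**Figure D3:**
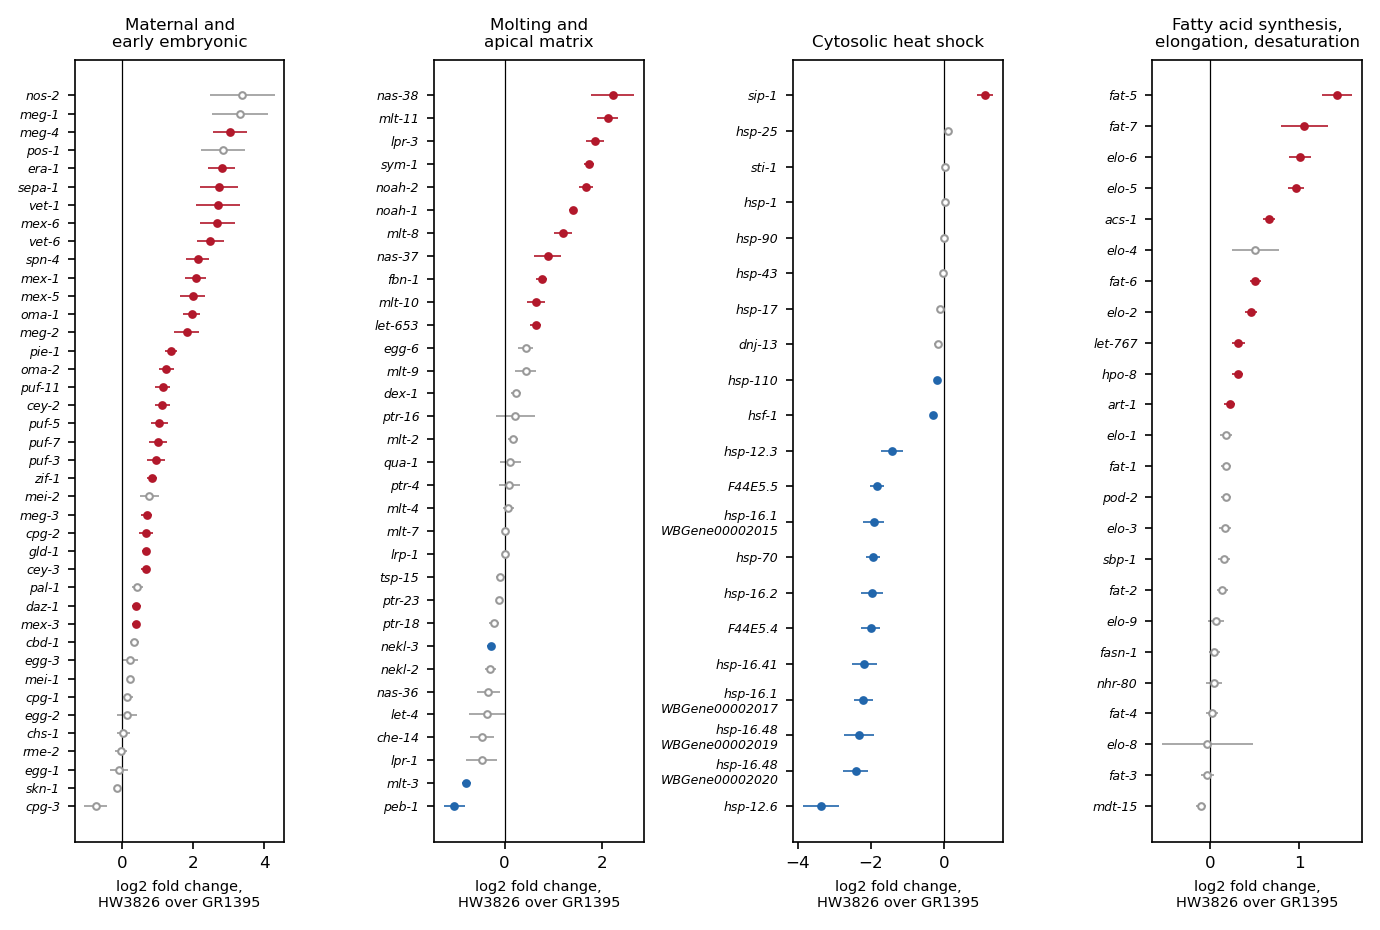
Log2 fold change of HW3826 over GR1395 with its standard error (horizontal bars) for each tested member of 4 gene lists; red points are called higher in HW3826, blue points called lower, and open grey points did not pass. Of the maternal and early embryonic list 25 of 40 were higher, of the molting and apical matrix list 11 of 32 were higher and 3 lower, of the cytosolic heat shock list 13 of 21 were lower, and of the fatty acid synthesis list 10 of 24 were higher.

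Among genes of detoxification and redox defence, glutathione transferases and antioxidant genes had more lower than higher calls. Glutathione transferases conjugate reactive compounds with glutathione. Of 49 tested, 17 were lower and 4 were higher (42.9% called, against 19.1% of all genes tested), and the median log2 fold change was -0.25. gst-1 (III 9059331 to 9060181) was at 108 and 111 CPM in HW3826, against 244 and 246 CPM in GR1395. Its libraries were close within each strain, and the log2 fold change was -1.16 (SE 0.06, adjusted p = 1.33e-07). gst-34, gst-14, gst-30, gst-12 and gst-35 had log2 fold changes of -1.37 to -0.93, of which the call of gst-14 ended without GR1395 replicate 1 (adjusted p = 0.0901) and that of gst-30 without HW3826 replicate 1 or GR1395 replicate 1 (up to 0.109). The neighbours gst-15, gst-14, gst-12 and gst-16 on chromosome II, from 13611770 to 13624440, were lower together, at -1.28 to -0.57, and the call of gst-15 ended without HW3826 replicate 1 or GR1395 replicate 1. The 4 higher members, chosen after their values were seen, were gst-33, gst-26, gst-28 and gst-27, at 0.73 to 0.46. The call of gst-33 ended without HW3826 replicate 1 or GR1395 replicate 2.

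Of 20 antioxidant and redox genes, 6 were lower and 2 were higher (40% called). Beside ctl-1, ctl-3 and sod-5, these were sod-4, an extracellular superoxide dismutase, msra-1, a methionine sulfoxide reductase, and gcs-1, which makes the precursor of glutathione. sod-4 was at 29.3 and 26.4 CPM in HW3826, against 53.7 and 42.1 CPM in GR1395, for a log2 fold change of -0.78 (SE 0.12, adjusted p = 0.00302). msra-1 was at 35.5 and 34.2 CPM in HW3826 and 49.3 and 57.3 CPM in GR1395, a log2 fold change of -0.61 (SE 0.08, adjusted p = 0.000323). gcs-1, chosen after its value was seen, had a log2 fold change of -0.42 (SE 0.06, adjusted p = 0.000626). The higher members were sqrd-1, a sulfide oxidoreductase, at 0.48 (adjusted p = 0.00251), and the mitochondrial superoxide dismutase sod-2, chosen after its value was seen, at 0.29 (adjusted p = 0.0122), whose call ended without HW3826 replicate 1 (adjusted p = 0.147). None of 5 flavin monooxygenase genes passed in edgeR or DESeq2, also at an unadjusted p under 0.05, while 2 were lower without GR1395 replicate 2.

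Cytochrome P450 genes and UDP-glucuronosyltransferases act early and late in the breakdown of foreign compounds. Of 71 P450 genes, 12 were lower and 4 were higher (median -0.09), and the 22.5% called was near the 19.1% of all genes tested. cyp-37B1 was at 3.85 and 3.46 CPM in HW3826, against 12.4 and 11 CPM in GR1395, a log2 fold change of -1.68 (SE 0.13, adjusted p = 6.11e-06). cyp-34A10 was at 0.827 and 1.03 CPM in HW3826, against 3.77 and 5.67 CPM in GR1395 (log2 fold change -2.34, SE 0.25, adjusted p = 7.74e-05). cyp-33D3 went the other way, at 3.35 and 2.44 CPM in HW3826 and 0.372 and 0.695 CPM in GR1395, a log2 fold change of 2.46 (SE 0.31, adjusted p = 0.000243). The other higher P450 genes were cyp-13B1, cyp-13A2 and cyp-43A1, of which cyp-13A2 and cyp-43A1 were chosen after their values were seen. The call of cyp-13B1 ended without either HW3826 library and that of cyp-43A1 in each of the 4 fits, and 2 P450 genes were higher without HW3826 replicate 2. Of 65 UDP-glucuronosyltransferases, 20 were higher and 6 were lower (median 0.20), which is 40% called. Whether the families differ from each other was not tested. ugt-33 was at 3.08 and 3.67 CPM in HW3826, against 1.2 and 0.842 CPM in GR1395, and ugt-8 at 6.69 and 8.30 CPM in HW3826, against 3.40 and 2.53 CPM in GR1395. Their log2 fold changes were 1.71 (SE 0.23, adjusted p = 0.000396) and 1.33 (SE 0.18, adjusted p = 0.00037). The lower member with the largest change was ugt-56, at -1.04 (adjusted p = 0.00177). Of the 26 calls, 14 held in all 4 fits, and without HW3826 replicate 2 the list gave 11 higher members.

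In lipid metabolism, the called genes of fatty acid synthesis were all higher in HW3826 and those of oxidation and lipolysis went both ways. Of 24 tested genes of fatty acid synthesis, elongation and desaturation, 10 were higher, 14 did not pass and none was lower (41.7% called, against 19.1% of all genes tested), with a median log2 fold change of 0.18. DESeq2 gave none lower either, and none was lower at an unadjusted p under 0.05. elo-5 (IV 5374616 to 5377117) and elo-6 (IV 5386629 to 5388559) code for elongases that make branched-chain fatty acids, which larvae need to leave the first stage. elo-5 was at 279 and 324 CPM in HW3826, against 144 and 165 CPM in GR1395, a log2 fold change of 0.97 (SE 0.09, adjusted p = 0.000116). elo-6 was at 341 and 428 CPM in HW3826, against 179 and 202 CPM in GR1395, a log2 fold change of 1.01 (SE 0.12, adjusted p = 0.00266). The strains were well apart in both genes. acs-1, an acyl-CoA synthetase that acts on the same fatty acids, was at 148 and 162 CPM in HW3826 and 91.8 and 104 CPM in GR1395 (log2 fold change 0.66, SE 0.07, adjusted p = 0.000116). The fatty acid desaturase genes fat-5, fat-6 and fat-7 had log2 fold changes of 1.43, 0.51 and 1.06 (adjusted p = 0.000132, 0.000128 and 0.0137). fat-6 was at 577 and 567 CPM in HW3826, against 403 and 398 CPM in GR1395. fat-7 was at 1.83 and 2.61 CPM in HW3826, against 0.974 and 1.16 CPM in GR1395, and its call ended without HW3826 replicate 2 (adjusted p = 0.109). Of the 10 calls, 7 held in all 4 fits.

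Of 22 genes of fatty acid oxidation, 5 were higher, 1 was lower and 16 did not pass (27.3% called, median 0.11). acs-2 (V 15567394 to 15569897), a mitochondrial acyl-CoA synthetase that feeds fatty acids into oxidation, was at 310 and 272 CPM in HW3826, against 73.7 and 85.3 CPM in GR1395. It rose by 1.87 on the log2 scale (SE 0.09, adjusted p = 7.86e-07). hacd-1, a hydroxyacyl-CoA dehydrogenase, was at 28.5 and 29.8 CPM in HW3826 and at 10.1 and 15 CPM in GR1395 (log2 fold change 1.22, SE 0.19, adjusted p = 0.00998), and its call ended without either HW3826 library (adjusted p of up to 0.176). The carnitine palmitoyltransferase gene cpt-5, the enoyl-CoA hydratase gene ech-7 and the acyl-CoA oxidase gene acox-1.1 had log2 fold changes of 0.59, 0.49 and 0.30, and the call of ech-7 ended with all 6 libraries in the fit (adjusted p = 0.0995). The nuclear hormone receptor gene nhr-49, a regulator of genes for fat use, was at -0.20 on the log2 scale (adjusted p = 0.0346), and that call ended without either HW3826 library. Without GR1395 replicate 2 the list gave 8 higher members and 5 lower, and its lower count was 4 without GR1395 replicate 1. Leaving out HW3826 replicate 1 gave 2 lower, and leaving out HW3826 replicate 2 gave 0. Of 6 lysosomal lipases (33.3% called), lipl-1 was higher by 1.04 and lipl-2 fell by 0.56 on the log2 scale (adjusted p = 0.00142 and 0.000346).

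Of 14 tested intestine markers, 7 were higher in HW3826, 1 was lower and 6 did not pass (57.1% called, against 19.1% of all genes tested). Together they took 1.16% and 1.17% of the counts in HW3826, against 0.883% and 0.915% in GR1395. A large part of these counts came from asp-1 and act-5, so the summed share says little about the other markers. The markers asp-1 and cpr-6 are also in the list of digestive proteases below. act-5, the actin of intestinal microvilli, was at 2730 and 2650 CPM in HW3826, against 1808 and 1978 CPM in GR1395, a log2 fold change of 0.51 (SE 0.07, adjusted p = 0.000337). The intermediate filament genes ifc-2 and ifb-2 had log2 fold changes of 0.48 and 0.44. The metallothionein gene mtl-2 was at 21.8 and 20.4 CPM in HW3826 and 10.5 and 9.56 CPM in GR1395 (log2 fold change 1.07, SE 0.10, adjusted p = 1.95e-05). The lower marker was elt-7, a GATA factor of the gut, chosen after its value was seen. Its log2 fold change was -0.30 (adjusted p = 0.0489), and the call ended in 3 of the 4 fits. The part of the whole marker list in the rise of digestive and lipid genes was not tested.

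Of 24 digestive proteases, 11 were higher and 2 were lower (54.2% called, against 19.1% of all genes tested, median 0.21). The aspartyl protease gene asp-12 was at 32.1 and 31.2 CPM in HW3826, against 9.46 and 7.06 CPM in GR1395, and rose by 1.93 on the log2 scale (SE 0.12, adjusted p = 4.78e-06). asp-8 was at 27.5 and 27.4 CPM in HW3826 and 13.7 and 14.1 CPM in GR1395, a log2 fold change of 0.99 (SE 0.08, adjusted p = 1.15e-05). The abundant asp-1 was at 6211 and 6088 CPM in HW3826, against 4322 and 4625 CPM in GR1395, with a log2 fold change of 0.46. asp-13 fell by 0.52, and so did cpz-1, a cathepsin Z gene chosen after its value was seen, by 0.42 (adjusted p = 0.00121 and 0.00278). There were 7 higher proteases without HW3826 replicate 1. Of 31 lysozyme and saposin-like genes, which attack bacterial walls and membranes, 9 were higher and 2 were lower (35.5% called, median 0.15). spp-23 was at 43.4 and 41.0 CPM in HW3826 and 21.5 and 20.9 CPM in GR1395, a log2 fold change of 0.99 (SE 0.08, adjusted p = 4.78e-06). spp-4, spp-14, spp-5 and spp-3 had log2 fold changes of 0.87, 0.71, 0.59 and 0.50. The lower members, lys-7 and lys-3, were chosen after their values were seen and had log2 fold changes of -0.37 and -0.44, of which the call of lys-3 held in none of the 4 fits.

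The gene haf-3, which codes for an ABC transporter, and aex-5, which codes for a proprotein convertase needed for the defecation program, were among the called genes with the smallest errors. haf-3 (V 15760455 to 15766172) was at 209 and 210.2 CPM in HW3826, against 73.5 and 73.4 CPM in GR1395, a log2 fold change of 1.51 (SE 0.06, adjusted p = 8.89e-09). aex-5 (I 14850052 to 14855827) was at 39.5 and 38.3 CPM in HW3826, against 124 and 121 CPM in GR1395, a log2 fold change of -1.66 (SE 0.06, adjusted p = 6.4e-09). The strains were far apart in both. Each has an antisense neighbour with overlapping exons, and whether the counting used strand is not given in the sources used here. Of the other tested haf genes, haf-4 had a log2 fold change of 0.34 and haf-2 of -0.74, and no other proprotein convertase passed.

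A provisional apical matrix precedes each new cuticle. Of 32 tested molting and apical matrix genes, 11 were higher in HW3826, 3 were lower and 18 did not pass (43.8% called, against 19.1% of all genes tested), with a median log2 fold change of 0.15, and 10 of the 14 calls held in all 4 fits. noah-1 (I 5874416 to 5878958), a zona pellucida domain protein of the provisional matrix, was at 22.8 and 22.6 CPM in HW3826, against 8.73 and 8.40 CPM in GR1395, a log2 fold change of 1.40 (SE 0.09, adjusted p = 1.17e-06). noah-2 (IV 14091254 to 14096626) was at 17.6 and 20 CPM in HW3826, against 5.03 and 6.84 CPM in GR1395, a log2 fold change of 1.67 (SE 0.14, adjusted p = 4.04e-05). In both genes each HW3826 library was more than 2-fold above each GR1395 library. sym-1, which codes for a leucine-rich repeat matrix protein, was at 26.1 and 29.3 CPM in HW3826 and 7.6 and 9.10 CPM in GR1395 (log2 fold change 1.73, SE 0.11, adjusted p = 8.68e-07). The lipocalin gene lpr-3 was at 6.79 and 5.84 CPM in HW3826, against 1.56 and 1.96 CPM in GR1395 (log2 fold change 1.85, SE 0.18, adjusted p = 3.38e-05). mlt-11, a protease inhibitor of the matrix, was at 6.81 and 4.91 CPM in HW3826, against 1.17 and 1.56 CPM in GR1395 (log2 fold change 2.11, SE 0.22, adjusted p = 6.35e-05). The astacin protease gene nas-38 had a log2 fold change of 2.21 (SE 0.44, adjusted p = 0.00404).

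The lower molting genes were chosen after their values were seen. They were mlt-3, at 14.4 and 13 CPM in HW3826 and 24.6 and 22.4 CPM in GR1395 (log2 fold change -0.78, SE 0.09, adjusted p = 0.000154), the DNA-binding factor gene peb-1 (-1.03, adjusted p = 0.0204) and the kinase gene nekl-3 (-0.28, adjusted p = 0.0452). The call of peb-1 ended without either HW3826 library, and that of nekl-3 in each of the 4 fits. Without HW3826 replicate 1 or without HW3826 replicate 2 there was 1 lower member. Of 13 regulators of the molting oscillation, 23.1% were called, near the 19.1% of all genes tested. lin-42, the Period homolog, was higher at 6.44 and 7.02 CPM in HW3826, against 3.95 and 4.63 CPM in GR1395 (log2 fold change 0.65, SE 0.15, adjusted p = 0.00915). grh-1, a Grainyhead factor of the epidermis, was lower at 15.4 and 15 CPM in HW3826, against 21.4 and 18.4 CPM in GR1395 (log2 fold change -0.39, SE 0.10, adjusted p = 0.0159), and this call ended without GR1395 replicate 1 (adjusted p = 0.137). The remaining call of this list was myrf-1. Of 20 heterochronic genes, which set the order of larval stages, 15% were called, below the 19.1% of all genes tested. Among them lin-42 was higher, and nhl-2 and lin-66 were lower, at log2 fold changes of -0.29 and -0.21. The call of nhl-2 ended without HW3826 replicate 2, and that of lin-66 in 3 of the 4 fits.

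Cuticle collagens form the body wall of the new cuticle. Of 101 tested collagens with a col number, 35 were higher and 4 were lower (38.6% called, against 19.1% of all genes tested). Their median log2 fold change was 0.30, and 29 of the 39 calls held in all 4 fits. col-65 was at 5.69 and 7.21 CPM in HW3826, against 1.38 and 1.31 CPM in GR1395, a log2 fold change of 2.26 (SE 0.19, adjusted p = 8.79e-06). col-130 was at 2.79 and 4.09 CPM in HW3826 and 0.655 and 0.906 CPM in GR1395 (log2 fold change 2.14, SE 0.27, adjusted p = 0.000214). The 4 lower members were col-181, col-2, col-122 and col-140, at -1.77 to -2.46, of which col-181 and col-2 were chosen after their values were seen. Of these, only the call of col-181 held in all 4 fits, and there was 1 lower member without HW3826 replicate 1 and by DESeq2, and 2 without HW3826 replicate 2 or GR1395 replicate 1. At a mean of 1 CPM or more, 33 of 61 collagens were higher and 1 was lower, against 1331 higher and 1218 lower of all 12381 genes at that cut. Of 6 furrow collagens, which form the circular bands of the cuticle, dpy-10, dpy-2 and dpy-9 were higher and none was lower (50% called). dpy-10 was at 4.92 and 4.15 CPM in HW3826, against 2.53 and 2.53 CPM in GR1395 (log2 fold change 0.84, SE 0.17, adjusted p = 0.00514). The calls of dpy-2 and dpy-9 were lost in 2 and 3 of the 4 fits, so 1 furrow collagen was higher without HW3826 replicate 1, and DESeq2 also gave 1. Among 7 other body-shape collagens (14.3% called), dpy-5 was lower at -1.19 (adjusted p = 0.0262), a call that ended without HW3826 replicate 1 or GR1395 replicate 1. Without HW3826 replicate 2, 3 of these 7 were higher.

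Of 63 tested hedgehog-related and patched-related genes, secreted proteins and membrane proteins that in nematodes act largely in epidermis and molting, 11 were higher and 2 were lower (median 0.14), and the 20.6% called was near the 19.1% of all genes tested. grl-16 was at 1.87 and 2.78 CPM in HW3826, against 0.301 and 0.274 CPM in GR1395, a log2 fold change of 3.0 (SE 0.33, adjusted p = 8.24e-05). grd-6, grd-14, wrt-10 and grl-21 had log2 fold changes of 3.18, 2.59, 1.54 and 1.5, and of these only the call of grd-14 held in all 4 fits. The lower members were ptr-3 (-0.60, chosen after its value was seen) and ptr-9 (-1.38), whose call ended in 3 of the 4 fits. Of 55 abu and pqn genes, many of which are expressed in the pharyngeal cuticle, 9 were higher and 3 were lower, 21.8% called. pqn-71 and abu-8 had log2 fold changes of 1.89 and 1.34 (adjusted p = 0.00105 and 0.00185). There were 5 higher members without HW3826 replicate 1. Of 26 astacin proteases, 19.2% were called, near the share of all genes tested. nas-38 and nas-37 were higher, and nas-6, nas-10 and nas-5 were lower. Of these, only the calls of nas-38 and nas-6 held in all 4 fits.

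**Figure D4:**
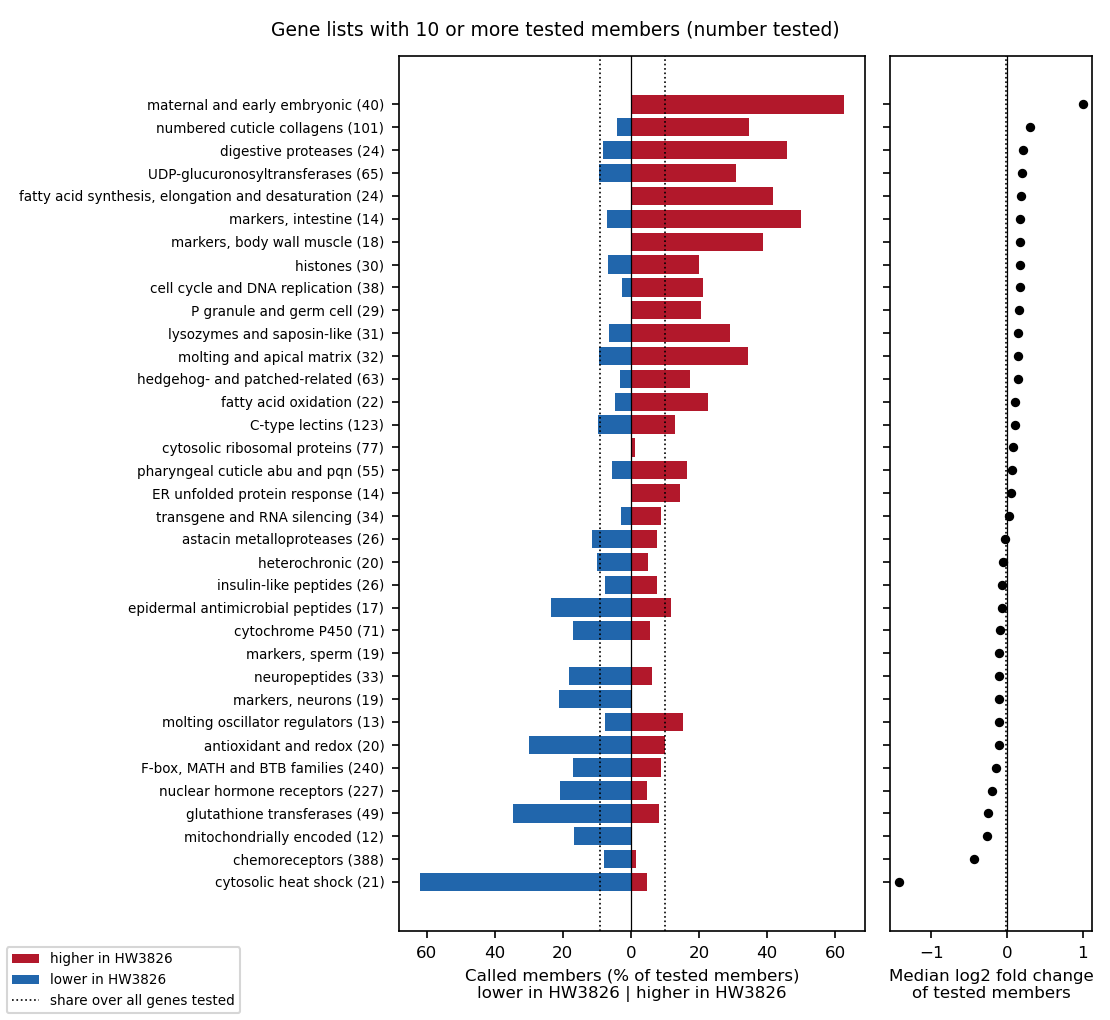
Share of tested members called higher in HW3826 (red bars, to the right) and lower in HW3826 (blue bars, to the left), in percent, for each gene list with 10 or more tested members, with the median log2 fold change of the tested members at the right; dotted lines mark the values over all genes tested (9.98% higher, 9.08% lower, median -0.01). The maternal list lies at the top with a median of 1.0, and the heat shock list at the bottom with -1.42. At a mean of 1 CPM or more these medians were 0.91 and -0.25.

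Large families of signal detection and gene regulation have many members at low levels. Of 1309 chemoreceptor genes, 388 passed the expression filter, and of these 31 were lower and 6 were higher, with a median log2 fold change of -0.44. The 9.54% called was below the 19.1% of all genes tested, and most members did not pass. A filter on low counts keeps a member that is expressed in either strain, and the 10% of all genes at the lowest levels had a median of -0.197. At a mean of 1 CPM or more, 11 of 67 chemoreceptors were lower and 2 were higher (median -0.39). Over all genes at that cut, 1218 of 12381 were lower and 1331 were higher (median 0.0). The share of chemoreceptors called in either direction was near that of all genes at the cut. The largest differences were the rises of str-18, with 24 and 19 counts in HW3826 against 1 and 2 counts in GR1395, and of srg-26, with 50 and 78 counts in HW3826 against 6 and 7 counts in GR1395. Only 9 of the 37 calls held in all 4 fits, and 11 members were lower without HW3826 replicate 1 and 19 without GR1395 replicate 1. DESeq2 gave 9 lower and 4 higher.

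Of 227 nuclear hormone receptors, 47 were lower and 11 were higher (25.6% called, against 19.1% of all genes tested, median -0.20). nhr-74 was at 6.31 and 6.32 CPM in HW3826, against 2.23 and 1.52 CPM in GR1395, a log2 fold change of 1.74 (SE 0.19, adjusted p = 7.95e-05). nhr-113 had 36 and 50 counts in HW3826 and 9 and 5 counts in GR1395 (log2 fold change 2.68, adjusted p = 0.00217). nhr-149 was at 0.519 and 0.485 CPM in HW3826, against 1.49 and 1.43 CPM in GR1395 (log2 fold change -1.53, SE 0.30, adjusted p = 0.00375). The lower count was 22 without HW3826 replicate 1 and 24 without GR1395 replicate 1, and without HW3826 replicate 1 the higher count was 7. DESeq2 gave 26 lower and 9 higher. Of 240 F-box, MATH and BTB genes, whose products pick substrates for ubiquitin ligases, 41 were lower and 21 were higher (25.8% called, median -0.15). Of the 6 called members with the largest changes, fbxb-82, fbxb-83, btb-8, fbxb-3 and btb-11 were higher, at fitted log2 fold changes of 4.14 to 2.68. fbxb-82 had 19 and 19 counts in HW3826, against 0 and 2 counts in GR1395, and btb-11 had 45 and 18 counts in HW3826, against 6 and 4 counts in GR1395. The call of fbxb-83 ended without GR1395 replicate 1, and that of btb-11 without HW3826 replicate 1. The other, fbxa-155, was at 0.192 and 0.358 CPM in HW3826, against 2.34 and 1.26 CPM in GR1395 (log2 fold change -2.72, SE 0.41, adjusted p = 0.000998). At a mean of 1 CPM or more, 32 of 142 were lower and 5 were higher, against 1218 lower and 1331 higher of all 12381 genes at that cut. Without HW3826 replicate 1 the counts were 21 lower and 8 higher, and without GR1395 replicate 1 they were 25 lower and 12 higher. DESeq2 gave 26 lower and 10 higher.

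Of 19 neuron markers, 15 did not pass, 4 were lower and none was higher in edgeR, in DESeq2 or at an unadjusted p under 0.05 (median -0.11). The 21.1% called was near the 19.1% of all genes tested. Together the markers took 0.226% and 0.224% of the counts in HW3826, against 0.257% and 0.251% in GR1395. unc-47, the vesicular GABA transporter, was at 6.48 and 6.60 CPM in HW3826, against 9.57 and 8.76 CPM in GR1395 (log2 fold change -0.49, SE 0.12, adjusted p = 0.0147). The synaptobrevin gene snb-1, ida-1 and rgef-1 had log2 fold changes of -0.26, -0.23 and -0.27. None of these 4 calls held in all 4 fits, and without HW3826 replicate 1 no marker passed. Without HW3826 replicate 2 there was 1, and without GR1395 replicate 1 there were 2. Of 33 neuropeptide genes, 6 were lower and 2 were higher, 24.2% called. flp-10 was at 6.14 and 7.19 CPM in HW3826, against 11.4 and 11.1 CPM in GR1395 (log2 fold change -0.76, SE 0.12, adjusted p = 0.00108). The higher members were flp-8 and pdf-2, at 0.42 and 0.37. Without HW3826 replicate 2, 3 neuropeptide genes were lower. Of 26 insulin-like peptide genes, 15.4% were called, below the share of all genes tested. ins-27 and ins-5 were higher, by 0.74 and 0.60, and ins-29 and ins-3 were lower, at -0.96 and -0.55. The call of ins-3 ended without HW3826 replicate 1 or GR1395 replicate 1.

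Of 18 body wall muscle markers, 7 were higher (38.9% called, against 19.1% of all genes tested) and none was lower in edgeR or DESeq2. The median log2 fold change was 0.17, and myo-3 was lower at an unadjusted p under 0.05. pat-10, a troponin C gene, was at 447 and 447 CPM in HW3826 and 355 and 328 CPM in GR1395 (log2 fold change 0.39, SE 0.06, adjusted p = 0.00135). It was the only muscle call that held in all 4 fits. There was 1 higher muscle marker without HW3826 replicate 1, 3 without HW3826 replicate 2 and 11 without GR1395 replicate 2, so the count of muscle calls rests on which libraries enter. Of 8 pharyngeal muscle markers (12.5% called), myo-5 was lower at -0.27, without a call when HW3826 replicate 1 was left out.

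Genes that deal with transgenes and double-stranded RNA differed little. Of 34 tested, 3 were higher and 1 was lower, which is 11.8% of the list against 19.1% of all genes tested, and the median log2 fold change was 0.02. rde-4, which codes for a double-stranded RNA binding partner of Dicer, was at 64 and 62.1 CPM in HW3826, against 48.7 and 50.4 CPM in GR1395 (log2 fold change 0.35, SE 0.06, adjusted p = 0.0028). The heterochromatin protein gene hpl-2 and the Argonaute genes ergo-1 and rde-1 had log2 fold changes of 0.26, 0.20 and -0.22, and their calls did not hold in all 4 fits. Without HW3826 replicate 1 or without GR1395 replicate 1, 1 member was higher, and without GR1395 replicate 1 there were 3 lower. Of 77 ribosomal protein genes, only rpl-41.1 passed, at 0.38 (adjusted p = 0.00465), a call that ended with all 6 libraries in the fit (adjusted p = 0.154). Over all genes tested, 7312 of 14904 had a positive sign, and the 10% at the highest levels had a median of 0.064. Of the 77 ribosomal protein genes, 65 had a positive sign with a median of 0.08, and the part of the lean with level in this was not tested. Without GR1395 replicate 1, 4 were higher. None of 19 tested sperm genes and none of 4 tested yolk genes passed in edgeR or DESeq2. At an unadjusted p under 0.05 the sperm gene spe-4 was higher, and spe-26, spe-46, spe-51 and the yolk gene vit-1 were lower.

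The 12 protein-coding genes of the mitochondrial genome had a median log2 fold change of -0.27, with 2 lower and none higher. The 16.7% called was near the 19.1% of all genes tested. They took 0.374% and 0.464% of the counts in HW3826, against 0.525% and 0.630% in GR1395, and polyadenylated RNA samples these transcripts only in part. WBGene00010963 was at 112.1 and 129 CPM in HW3826, against 152 and 167 CPM in GR1395 (log2 fold change -0.40, SE 0.08, adjusted p = 0.00383). The lower count was 6 without GR1395 replicate 1 and 4 without GR1395 replicate 2, and without HW3826 replicate 2 there were 4 higher members and 3 lower.

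Some differences fell on neighbouring genes. Taking the tested genes in order along each chromosome, 22 runs of at least 4 neighbours were called in the same direction, 10 higher and 12 lower in HW3826, with 94 genes in all. Neighbours can share transcripts, overlap or be copies of each other. There were 4 such runs without HW3826 replicate 1, 9 without HW3826 replicate 2 and 12 without GR1395 replicate 1.

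The longest runs had 6 genes. One of them lay on chromosome IV from 3584400 to 3609229 and was higher in HW3826. It held taf-2, which codes for a subunit of the general transcription factor TFIID, Y37E11B.5, Y37E11B.6, Y37E11B.7, Y37E11B.10 and kgb-2, a stress kinase gene. taf-2 was at 60.9 and 57.9 CPM in HW3826, against 29.2 and 30.2 CPM in GR1395, a log2 fold change of 1.0 (SE 0.07, adjusted p = 1.56e-06). Apart from Y37E11B.10, the members lay within a narrow band of log2 fold change, from 1.0 to 1.44. The next genes outside did not pass: blos-7 was at 0.15 on the log2 scale (adjusted p = 0.439) and ltah-1.2 was at -0.21 (adjusted p = 0.0595). A run on chromosome III, from 1269568 to 1297142, was lower and held the F-box genes fbxa-31, fbxa-29, fbxa-37, fbxa-50, fbxa-36 and fbxa-35, at log2 fold changes of -1.76 to -0.55. fbxa-50 was at 0.5 and 0.422 CPM in HW3826, against 1.97 and 1.16 CPM in GR1395. The calls of fbxa-31, fbxa-29 and fbxa-35 did not hold in all 4 fits.

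A run on chromosome IV from 17162097 to 17189805 held skr-13, skr-9, skr-8 and skr-12, genes for Skp1-related subunits of ubiquitin ligases, and C52D10.3. skr-12 was at 1.90 and 1.05 CPM in HW3826, against 0.301 and 0.232 CPM in GR1395 (log2 fold change 2.46, SE 0.40, adjusted p = 0.0012). The call of skr-9 ended without HW3826 replicate 1, and those of skr-8 and skr-9 with all 6 libraries in the fit (adjusted p = 0.0531 and 0.0583). The skr genes are close copies, so their separate values are uncertain. Their relative skr-10, also on chromosome IV (15946807 to 15947385), was at 4.42 and 2.89 CPM in HW3826 and at 0.407 and 0.863 CPM in GR1395 (log2 fold change 2.55, SE 0.35, adjusted p = 0.00123). A run on chromosome V from 18686321 to 18711856 held ubc-19, which codes for a ubiquitin-conjugating enzyme, Y69H2.7, Y69H2.9, Y17D7C.1 and Y17D7C.6, all higher, at log2 fold changes of 1.02 to 1.90. Y69H2.7 was at 53.4 and 49.6 CPM in HW3826, against 22.2 and 21.5 CPM in GR1395 (log2 fold change 1.24, SE 0.08, adjusted p = 5.35e-07). The call of Y17D7C.6 ended without HW3826 replicate 2 (adjusted p = 0.0661). The left neighbour of the run, Y69H2.17, and the right neighbour, Y17D7C.2, did not pass. The remaining 18 runs had 4 genes each. Chosen after their values were seen, they include the lipocalin genes lpr-3, lpr-6 and lpr-5 with C09F12.2 on X (11053915 to 11064539), higher at 0.57 to 1.88 with the call of C09F12.2 ending in 3 of the 4 fits, and the collagen genes col-167 to col-170 on X (6323488 to 6332611), higher at 0.45 to 0.82.

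**Figure D5:**
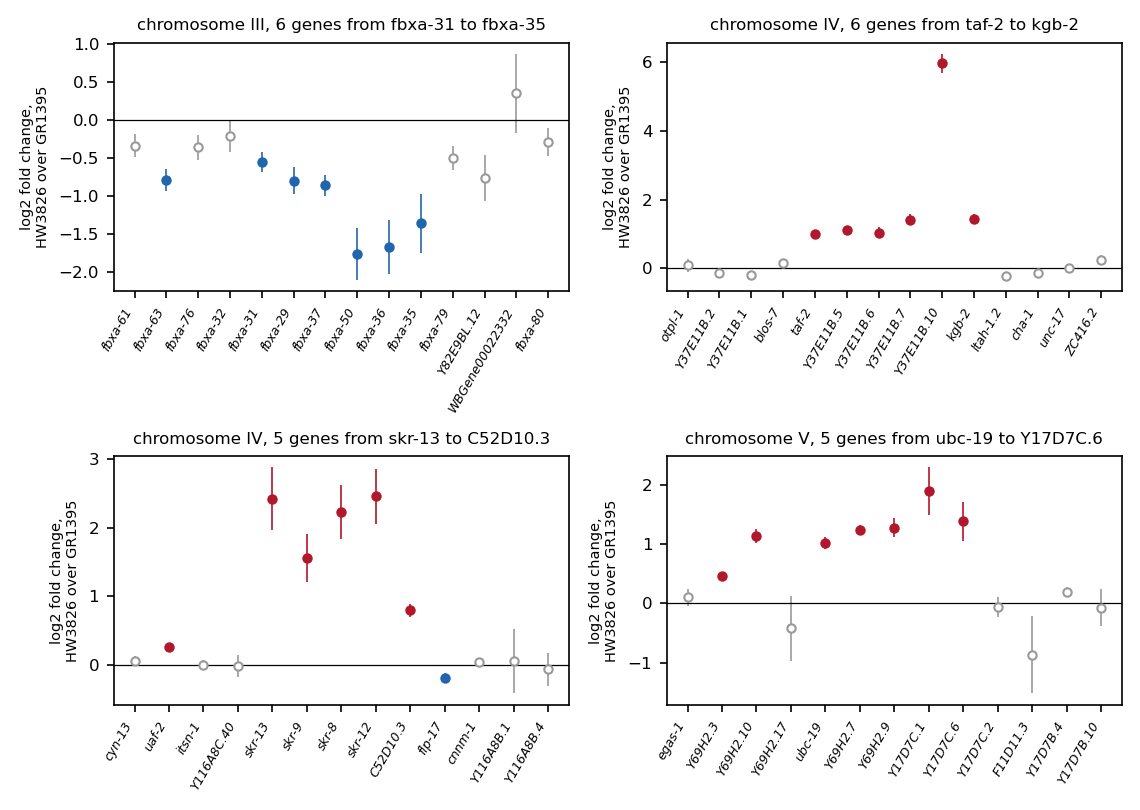
Log2 fold change of HW3826 over GR1395 with its standard error (vertical axis, bars) for the genes of the 4 longest runs and 4 tested neighbours on each side, in the order along the chromosome; red points are called higher in HW3826, blue points lower, and open grey points did not pass. In the run from taf-2 to kgb-2 the 6 genes lie at 1.0 or above, and the genes next to it lie near 0.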

How the data were processed

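RNA-seq libraries of whole larvae were compared between the strains HW3826 and GR1395, with 2 libraries each. The authors deposited raw counts per gene for 20190 genes, with a gene length in bases. Per the submitters' processing notes the genome build was ce11 and HISAT2 1.10.0 was used. Counting tool, annotation and strand use were not given in the sources used here, so overlapping genes and near-identical copies are uncertain. The authors' deposited log2 values follow from these counts (scaled to the mean library total, plus 8) and were used only for that check. Reads from GFP were not analysed here. Positions came from the Ensembl annotation of WBcel235, the assembly also named ce11, for 20105 genes, and 85 genes had none.

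The counts of the 4 libraries were fitted with edgeR 4.0.16 in R 4.3.3. Its expression filter kept 14904 genes, scaling was by trimmed mean of M-values, and strains were compared by the quasi-likelihood test with Benjamini-Hochberg adjustment over these genes at 0.05. There were 2 residual degrees of freedom and a biological coefficient of variation of 8.02% (median). A fold change is HW3826 over GR1395, with its standard error (SE). The procedure was tested on simulated data, in which 200 of 14904 genes were changed, all with a mean of at least 2 CPM. It called 84% of the genes changed by 0.585 on the log2 scale and 97% of those changed by 1. There were 25 false calls among the unchanged genes. In this simulation the false calls made up a larger share of all calls than the 0.05 threshold aims for. Recovery at lower levels was not tested. Intervals on summed counts are exact at 95% and cover counting error only.

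Genes were named by a rule: the source and myrf genes, the 10 largest rises and falls among called genes with a mean of at least 2 CPM, up to 6 called members of each list by size of change, genes at 3 or fewer counts in 1 strain only, and members of the 5 longest runs. Members of other runs and genes named beside these were chosen after their values were seen. The gene lists and the comparison itself were chosen with earlier results of these data known. A planned search for promoter motifs was not run. Alternatives were upper-quartile scaling, DESeq2 size factors, no filter and a stricter filter, the DESeq2 1.42.0 test, limma-voom (limma 3.58.1), all 6 libraries in the fit, removal of a gene-length trend, a replicate block, and leaving out each library. With 1 library left out, the lone library of its strain was assumed to vary like the other strain's.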

Additional observations from a re-analysis of the deposited data

How the results depend on the processing

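The counts of genes higher and lower in HW3826 stayed within 1.5 times of those reported under the other scalings, filters, tools and fits, except when a library was left out. Upper-quartile scaling gave 1375 higher and 1481 lower, DESeq2 gave 1188 and 931, and limma-voom gave 1479 and 1304. Leaving out 1 library gave 856 to 1766 higher genes, 762 to 1609 lower genes, 360 to 738 genes past 2-fold, 324 to 594 called list members, 156 to 283 higher genes on X, 4 to 27 runs of at least 4 neighbours and 1 to 13 genes at 3 or fewer counts in each library of 1 strain and at 1 CPM or more in the other; the lowest counts of calls came without HW3826 replicate 1. The stricter filter, which tested 11869 genes, left 175 genes past 2-fold and 10 runs, and DESeq2 left 12 runs; for DESeq2 the cause was not tested. No label says that a replicate number marks a shared culture or day; deviations of same-numbered libraries had a correlation of 0.0186, while the second principal component separated the numbers. The fit with the replicate block gave 1809 higher, 1709 lower and 41 runs, with 18 higher members of the maternal list. Calls that ended there include those of mex-6, C17E7.4, hsp-16.41, vet-1 and ZC308.4 (adjusted p = 0.157, 0.155, 0.136, 0.133 and 0.131). Those of sepa-1, hil-4, era-1, Y47D7A.13 and cyb-1 ended too (adjusted p = 0.0866, 0.0837, 0.0799, 0.0609 and 0.0556). The log2 fold change of pan-1 turned to 0.06 without HW3826 replicate 1 and to 0.04 without GR1395 replicate 2 (range -0.18 to 0.06 with 1 library left out), and that of ttx-3 to 0.01 without HW3826 replicate 1 (range -0.28 to 0.01), and neither gene was called in any of these fits; the cause was not tested. Of 224 called named genes, 134 kept their call in every fit that left out a library and 128 under every setting. With 2 libraries per strain, genes below 1 CPM carry the widest errors.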

Other observations

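Further immune and secreted gene families had calls in both directions. Of 123 tested C-type lectin genes, whose products bind sugars and many of which respond to bacteria, 16 were higher and 12 were lower in HW3826. The median log2 fold change was 0.11, and the 22.8% called was near the 19.1% of all genes tested. clec-205 was higher by 1.84 on the log2 scale (adjusted p = 5.39e-05). clec-166, chosen after its value was seen, was at 48.4 and 46.6 CPM in HW3826, against 25.5 and 24.1 CPM in GR1395, a log2 fold change of 0.94. The largest change was that of clec-3, lower at -2.64 (adjusted p = 0.000553), and clec-10 was lower too, at -1.18 (adjusted p = 3.2e-05). clec-145 and clec-61 were lower at -1.94 and -1.33, and both calls ended without HW3826 replicate 2. Without HW3826 replicate 2, 10 of these genes were higher. Of 17 tested antimicrobial peptide genes of the epidermis, 35.3% were called, against 19.1% of all genes tested. The caenacin genes cnc-6, cnc-7 and cnc-11 and nlp-28 were lower, at log2 fold changes of -2.89 to -0.51. nlp-24 and cnc-3 were higher, at 0.47 and 0.45. That list gave 9 lower members without GR1395 replicate 2, 1 without HW3826 replicate 1, 2 without HW3826 replicate 2 or GR1395 replicate 1, and 7 higher members without GR1395 replicate 1. The calls of cnc-6, cnc-7 and cnc-11 each ended without HW3826 replicate 1.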
